A study of Mus musculus with 30 samples.

Results

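Glucose breakdown, lactate handling and glycogen storage were described in sorted astrocytes from mouse brain through 38 listed genes. The list was drawn up by pathway, with earlier results of these data known, so counts set beside the share of all genes only describe. It held glucose and lactate transporters, the enzymes of glycolysis, lactate dehydrogenases, pyruvate dehydrogenase kinases, glycogen enzymes and part of the pentose phosphate pathway. Each gene was represented by its brightest probe set carrying 1 gene symbol, and 34 of the 38 genes had such a probe set. All 34 also passed the filter on low intensities, out of 15726 genes tested in the series. The remaining 4 (Gpi1, Gapdh, Eno1 and G6pdx) had no probe set of 1 symbol and are not analysed here.

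Glycolysis splits glucose into pyruvate, which is reduced to lactate or enters mitochondria through pyruvate dehydrogenase, an enzyme that the pyruvate dehydrogenase kinases switch off. Phosphofructokinase is the step at which flux through the pathway is mainly controlled, and the Pfkfb enzymes make and remove its strongest activator. In the adult brain glycogen is stored chiefly in astrocytes, and these cells are known for a high rate of glycolysis and for releasing lactate.

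The mice were young adult males that carried Tg(Aldh1l1-eGFP) OFC789Gsat and had a Swiss Webster background, so the Aldh1l1 regulatory sequence drove the green reporter in every group, controls included. Cells were dissociated with papain and sorted on that reporter. The stroke model was a blockage of the middle cerebral artery (MCAO) for 1 hour followed by reperfusion, and was compared with sham surgery at 1 day (5 MCAO and 4 sham arrays), 3 days (3 and 3) and 7 days (3 and 3). Inflammation was made by lipopolysaccharide (LPS), a bacterial cell wall component, at 5 mg/kg, and was compared with saline after 1 day (5 and 4 arrays). Arrays of a group are labelled as biological replicates, with no word on separate mice, so p-values cover only the variation among these samples, which may be technical. In sorted bulk samples, fewer cells of a type and less RNA per cell cannot be told apart.

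The 30 arrays fell into a bright set of 16, whose highest intensity was between 31338 and 35553, and a dim set of 14, between 20222 and 26595. The labels do not say what the sets are. All 1-day surgery arrays were bright and all 7-day arrays dim, while the LPS, saline and 3-day groups held both kinds. LPS array 5 stood apart: 5581 genes, 9 members among them, lay over 2-fold from the other LPS arrays, against 835 to 2633 genes for the rest of that group. Astrocyte markers identified the sorted cells in every group, with none of the 9 measured markers below the filter on all arrays of a group. In the 1-day surgery arrays the summed intensity of those markers was 93019 to 114691 after MCAO and 124956 to 135722 after sham surgery, and 2 of the 9 (Slc1a3 and Gjb6) were called lower. Of 69 kept markers of all cell types, 5 were called higher and 5 lower at 1 day after MCAO, beside 6.49% and 6.17% of all genes. The higher ones were Cd68 of microglia, S100a8 and Il1r2 of neutrophils, Vwf of endothelium and Tagln of mural cells. The lower ones, besides those of astrocytes, were Cnp and Aspa of oligodendrocytes and Cacng4 of their precursors. Over whole lists the median log2 difference was 0.03 for microglia, 0.01 for neutrophils and monocytes, 0.13 for endothelium and -0.12 for mural cells. It was -0.31 for astrocytes, -0.43 for oligodendrocytes, 0.16 for their precursors and -0.16 for neurons. Fibroblasts had the highest median, 0.42, with 0 of 5 markers called. Summed oligodendrocyte markers ranged from 12648 to 28405 after MCAO and from 17210 to 36698 after sham surgery, and summed neutrophil and monocyte markers from 485 to 544 and from 414 to 443. The part of other cell types in the differences described here was not tested.

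At 1 day after MCAO 3 genes of glycogen turnover, 2 phosphofructokinase genes and a pyruvate dehydrogenase kinase gene fell relative to sham surgery. The lactate dehydrogenase gene Ldhb and the Pfkfb gene Pfkfb2 fell too. Genes of a hexokinase (Hk2), an activator-making Pfkfb enzyme (Pfkfb3) and a pentose phosphate enzyme (Pgd) rose, as did Pgm2. When 1-day surgery arrays were paired by the number in their descriptions, the calls of Hk2, Pfkfb2, Pfkfb3 and Pgd ended. The highest fold among the called members was 2.41, for Pdk2, a kinase that switches off pyruvate dehydrogenase. Pgm1, which links glucose phosphates to glycogen, was 2.25-fold lower, and Pygb, the brain form of glycogen phosphorylase, was 1.99-fold lower. Pgd, an enzyme of the oxidative pentose phosphate branch, was 2.26-fold higher and Hk2, an inducible hexokinase, 2.11-fold higher.

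A gene was called where limma's p, adjusted by Benjamini and Hochberg's method across the 15726 genes, was under 0.05. At 1 day after MCAO this held for 12 of the 34 members, 4 higher and 8 lower, beside 12.7% of all genes tested (6.49% higher and 6.17% lower), and 17 members had an unadjusted p under 0.05, beside 23.3%. In 19 of the 34 members the MCAO and sham arrays did not overlap, beside 27.3% of all genes; 15 of them were lower, beside 15.2%, and 4 higher, beside 12.1%. The members' median log2 difference was -0.21, against -0.05 over all genes. Sham and MCAO arrays of the same description number deviated together from their group means. With that number as a block in these 9 arrays 8 members were called, beside 1218 of all 15726 genes. The calls that ended were those of Hk2 (adjusted p = 0.068), Pfkfb2 (0.088), Pfkfb3 (0.118) and Pgd (0.0507). That fit takes no information from MCAO array 1, which has no sham partner.

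**Figure D1:**
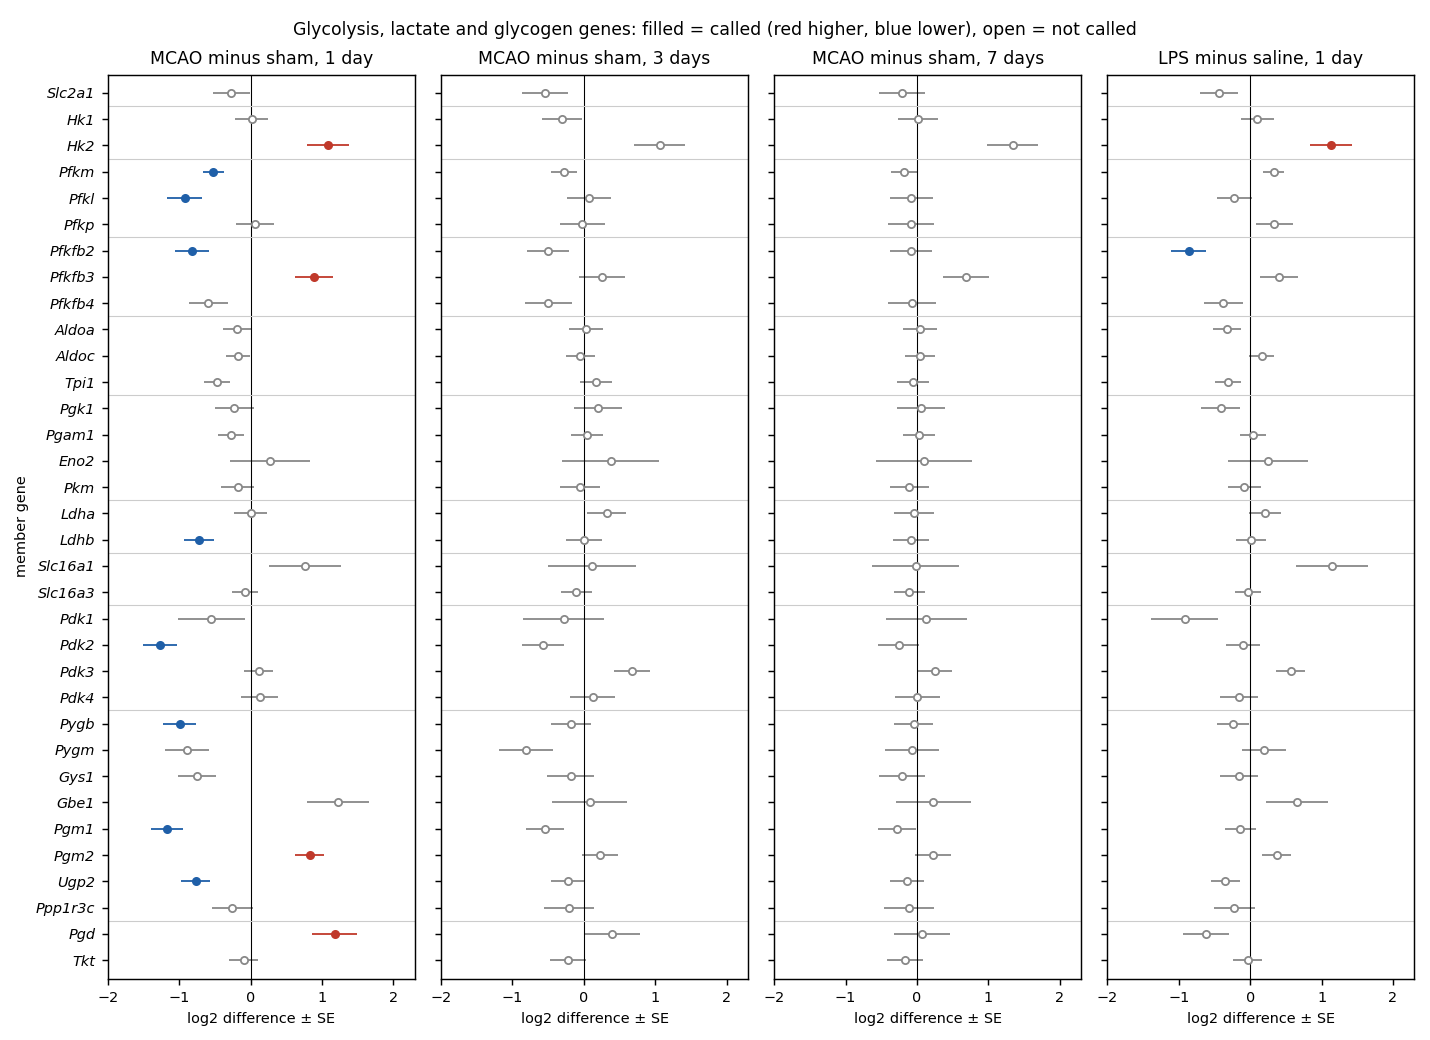
Log2 difference ± SE of the 34 measured members (rows, grouped by role) in 4 comparisons, MCAO minus sham at 1, 3 and 7 days and LPS minus saline at 1 day. Filled points were called; 12 members were called at 1 day after MCAO, 2 after LPS and 0 at 3 and 7 days.

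Among the 3 measured transporters, none was called at 1 day after MCAO, beside 12.7% of all genes. Slc2a1, the glucose transporter of astrocytes and brain vessels, had a log2 difference of -0.27 (95% interval -0.81 to 0.27). Slc16a1, which carries lactate and other monocarboxylates, lay at log2 intensities of 13.36, 13.45, 13.15, 13.38 and 12.57 after MCAO and 12.43, 11.95, 12.89 and 12.40 after sham surgery. Its ranges overlapped through MCAO array 5 and sham array 3, and its difference of 0.76 ± 0.51 (SE) was not called (adjusted p = 0.424). Summed endothelial markers were 9537 on sham array 3 and 9551 on MCAO array 4, against 1615 to 4048 on the other 1-day surgery arrays. Sham array 3 was the highest sham array for Slc16a1 and for Slc2a1 (13.54), while MCAO array 4 was the highest of its group for neither. The part of endothelium in the values of Slc16a1 and Slc2a1 was not tested. Slc16a3, the lactate exporter of highly glycolytic cells, stayed near the filter in every group, with group means from 4.86 to 5.06 and a filter at 5, so its difference of -0.08 says little.

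Hk1 and Hk2 phosphorylate glucose as it enters the cell. Hk2 lay at 9.97, 9.48, 9.57, 9.55 and 9.45 in the MCAO arrays and at 8.20, 8.54, 8.98 and 8.38 in the sham arrays. Every MCAO array was above every sham array, and MCAO array 1 was the highest. The log2 difference of Hk2 was 1.08 ± 0.29 (adjusted p = 0.014), and without sham array 1 it was no longer called (0.97, adjusted p = 0.0625). Hk1, the hexokinase that most brain cells use, differed by 0.01 (95% interval -0.46 to 0.49).

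Phosphofructokinase is built from muscle (Pfkm), liver (Pfkl) and platelet (Pfkp) type subunits, of which the first 2 were called. Pfkm lay at 13.56, 13.24, 13.34, 13.31 and 13.44 after MCAO and at 13.98, 13.94, 13.74 and 13.96 after sham surgery, all MCAO arrays below all sham arrays. Its difference was -0.53 ± 0.15 (adjusted p = 0.0173), and the call ended without sham array 1, 2 or 4. Pfkl lay at 10.77, 10.15, 10.69, 10.80 and 10.60 against 11.69, 11.34, 11.90 and 11.19, again with no overlap, a difference of -0.93 ± 0.25 (adjusted p = 0.0127). Without sham array 3 the call of Pfkl ended (-0.80, adjusted p = 0.0524), and of its other probe sets 1 had -0.89 and a dimmer one -0.41. Pfkp differed by 0.06 (95% interval -0.48 to 0.60) and was not called.

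The Pfkfb genes encode bifunctional enzymes that set the level of the phosphofructokinase activator, and Pfkfb3 is the form with the strongest activator-making bias. Pfkfb3 lay at 10.70, 10.03, 10.01, 10.25 and 9.86 after MCAO and at 9.03, 9.12, 9.61 and 9.34 after sham surgery. All MCAO arrays were higher, and the difference was 0.89 ± 0.27 (adjusted p = 0.0246). Pfkfb2, the form best known from heart, went the other way, with 8.13, 8.78, 8.41, 8.27 and 8.60 after MCAO against 9.42, 9.21, 8.93 and 9.46. Its groups did not overlap and differed by -0.82 ± 0.24 (adjusted p = 0.0228), but its other 3 probe sets, all dimmer, had differences from -0.12 to 0.17, and over the mean of its probe sets it was not called (-0.20, adjusted p = 0.178). The calls of Pfkfb2 and Pfkfb3 held in 4 of 9 fits that each left out 1 array, and ended without MCAO array 1 or 4 or sham array 1, 2 or 4. Pfkfb4 had a difference of -0.59 with no overlap and was not called (adjusted p = 0.181).

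From aldolase to pyruvate kinase, 0 of the 7 measured members were called, beside 12.7% of all genes. In Aldoc, Tpi1, Pgk1 and Pgam1 all MCAO arrays were below all sham arrays, beside 15.2% of all genes. These enzymes (Aldoa, Aldoc, Tpi1, Pgk1, Pgam1, Eno2 and Pkm) carry the bulk flow of glycolysis, and their differences ran from -0.47 for Tpi1 to 0.27 for Eno2. Tpi1, triose phosphate isomerase, lay at 11.82 to 12.38 after MCAO (median 12.34) and at 12.60 to 12.84 after sham surgery (adjusted p = 0.101). Aldoc, the aldolase characteristic of astrocytes, lay at 14.39 to 14.50 against 14.56 to 14.65, also without overlap, a difference of -0.18 (adjusted p = 0.664). Eno2, the enolase characteristic of neurons, was highest on MCAO array 4 (10.35) and sham array 3 (10.26) and between 8.57 and 9.61 on the other 7. Those 2 arrays also had the highest summed neuron markers, 8342 and 11084 against 2438 to 3338 on the others, and the part of neurons in the values of Eno2 was not tested.

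Lactate dehydrogenase has a form that favours lactate production (Ldha) and one that favours its use (Ldhb). Ldha differed by 0.00 (95% interval -0.47 to 0.47), with overlapping arrays. Ldhb lay at 13.41, 12.78, 13.53, 13.24 and 13.46 after MCAO and at 14.07, 14.03, 13.94 and 13.99 after sham surgery. Every MCAO array was lower, array 2 the lowest, and the difference was -0.72 ± 0.21 (adjusted p = 0.019), with -0.76 to -0.73 in its other 3 probe sets. The call of Ldhb held in 6 of 9 fits without 1 array, and ended without MCAO array 2 or sham array 1 or 2.

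Of the 4 pyruvate dehydrogenase kinases, only Pdk2 was called at 1 day after MCAO. It lay at 7.08, 7.76, 8.65, 7.22 and 8.33 after MCAO and at 9.17, 9.33, 8.94 and 8.86 after sham surgery. The MCAO arrays were all lower but spread over a wide range. The difference of -1.27 ± 0.24 (adjusted p = 0.000524) stayed called in all 9 fits without 1 array and under both forms of the block. Pdk1, a kinase induced by low oxygen, had -0.55 (adjusted p = 0.587), Pdk3 0.11 and Pdk4, the starvation-induced form, 0.13, none of them called.

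Glycogen was the largest branch, with 8 measured members, of which 4 were called, 3 lower and Pgm2 higher, beside 12.7% of all genes. In the smaller phosphofructokinase and Pfkfb branches 2 of 3 were called in each. Glycogen phosphorylase releases glucose units from the polymer, and its brain form Pygb lay at 12.15, 12.35, 12.81, 12.35 and 12.68 after MCAO and at 13.63, 13.56, 13.14 and 13.52 after sham surgery. All MCAO arrays were below all sham arrays, with a difference of -0.996 ± 0.23 (adjusted p = 0.00325). The muscle form Pygm lay at 9.98, 10.55, 9.68, 9.52 and 10.16 against 10.82 to 10.90, a difference of -0.90 ± 0.31 that missed the threshold (adjusted p = 0.0544).

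On the synthesis side, Pgm1 interconverts the glucose phosphates and Ugp2 makes UDP-glucose, the donor for glycogen. Pgm1 lay at 10.12, 10.44, 10.93, 10.22 and 10.79 after MCAO and at 11.69, 11.83, 11.57 and 11.59 after sham surgery, far apart, with a difference of -1.17 ± 0.22 (adjusted p = 0.000534). A second, dimmer probe set of Pgm1 had -1.16. Ugp2 lay at 11.44, 11.44, 11.91, 11.54 and 11.91 against 12.57, 12.49, 12.01 and 12.61, close to touching at sham array 3 but without overlap. Its difference was -0.77 ± 0.20 (adjusted p = 0.00849), and its other 4 probe sets had -0.85 to -0.62. Gys1, the glycogen synthase of most tissues, had 9.04 to 9.39 against 9.81 to 10.10 with no overlap and was not called (-0.75, adjusted p = 0.0673).

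A single member counted with this branch rose. Pgm2, whose product acts mainly on pentose phosphates, lay at 8.80, 8.47, 8.45, 8.76 and 8.33 after MCAO and at 7.52, 7.64, 8.01 and 7.77 after sham surgery. All MCAO arrays were higher, by 0.83 ± 0.21 (adjusted p = 0.00701). Gbe1, the branching enzyme, lay at 8.46, 7.60, 9.13, 7.65 and 8.64 against 6.64, 7.00, 8.01 and 6.61. Sham array 3 lay inside the MCAO range, and the difference of 1.23 ± 0.43 was not called (adjusted p = 0.063), although without that array it was (1.54, adjusted p = 0.0248). Ppp1r3c, which brings a phosphatase to glycogen, differed by -0.26 (95% interval -0.84 to 0.33).

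In the pentose phosphate pathway, which makes NADPH and ribose, Pgd and Tkt were measured. Pgd, phosphogluconate dehydrogenase, lay at 13.07, 12.59, 13.37, 12.59 and 13.29 after MCAO and at 12.10, 11.82, 11.62 and 11.69 after sham surgery. The groups were clearly separated, the difference was 1.17 ± 0.32 (adjusted p = 0.0138), and 3 other probe sets had 1.06 to 1.34. Tkt, transketolase, differed by -0.10 (95% interval -0.52 to 0.32).

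**Figure D2:**
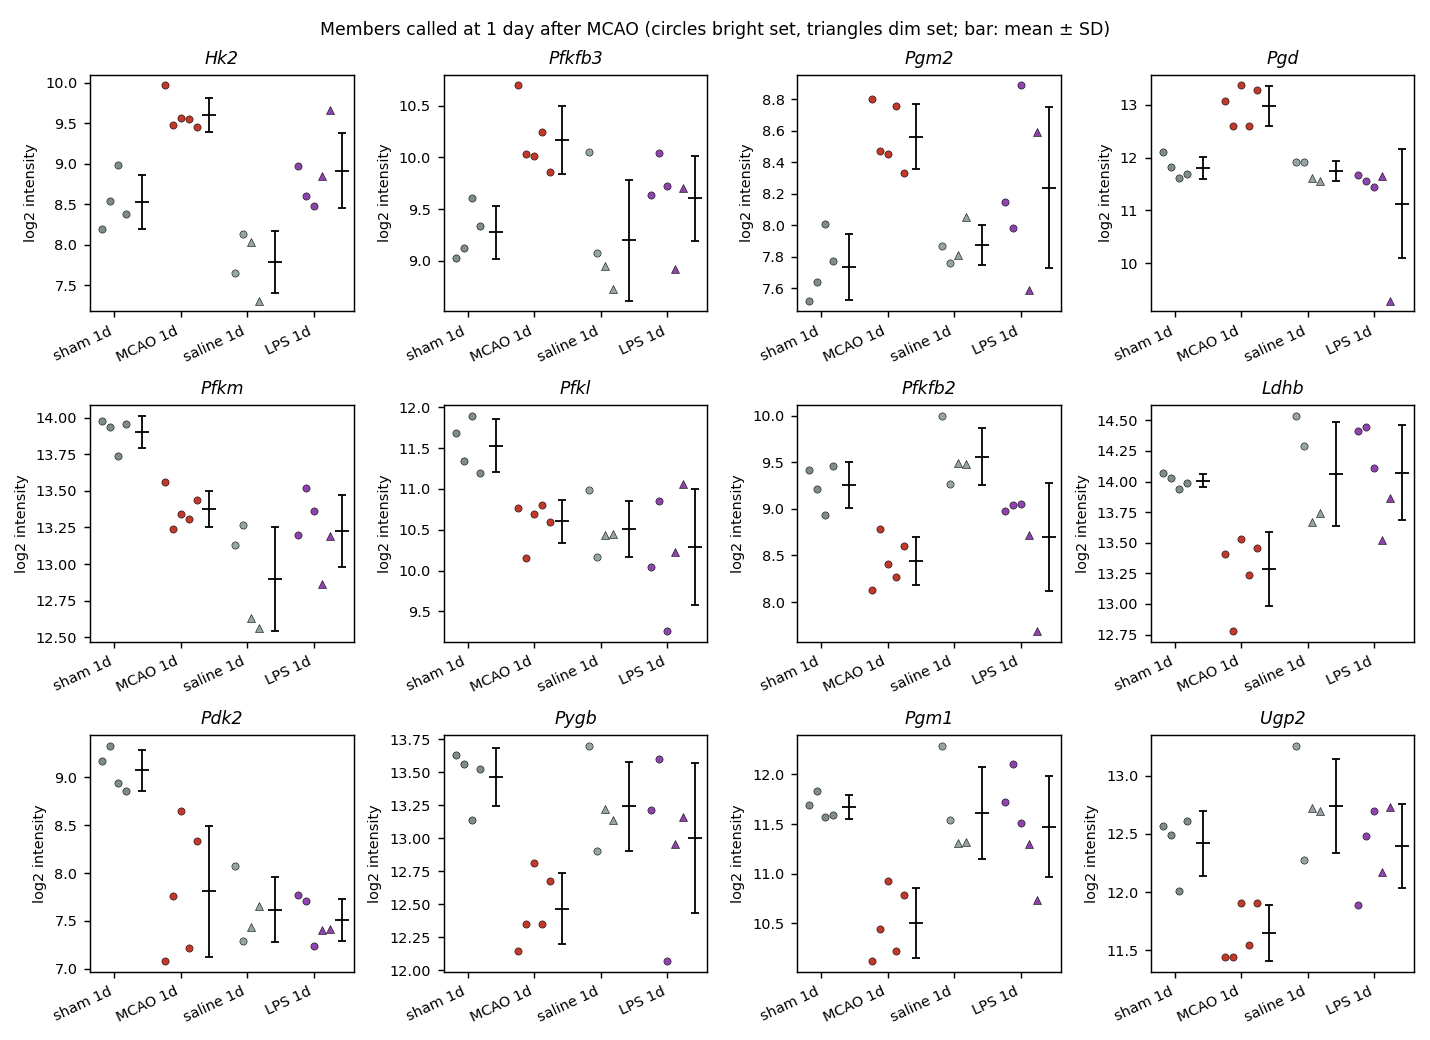
Log2 intensity of the 12 members called at 1 day after MCAO, on each sham, MCAO, saline and LPS array at 1 day (circles bright set, triangles dim set, bars mean ± SD of the group). MCAO and sham points do not overlap in any of the 12 panels; Hk2 and Pfkfb2 alone are also separated between LPS and saline.

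Other genes of the same pathways, 72 kept of 82 listed by pathway, were read beside the members. They too were listed with earlier results of these data known. At 1 day after MCAO 4 of the 72 were called higher, beside 6.49% of all genes, and 12 lower, beside 6.17%, with a median of -0.17 against -0.05 over all genes. In the glycogen list 5 of 20 were lower and 0 higher: the glycogen-targeting phosphatase subunits Ppp1r3g (-1.98, adjusted p = 0.00416) and Ppp1r3d (-1.36), the phosphorylase kinase catalytic subunit Phkg1 (-1.66), the liver phosphorylase Pygl (-1.34) and the lysosomal glucosidase Gaa (-0.74). Glycogen breakdown and glycogen synthesis genes were thus both among those called lower. In the pentose phosphate list 2 of 9 were higher, Taldo1 (transaldolase, 0.89, adjusted p = 0.00864) and Rpia (ribose phosphate isomerase, 0.55, adjusted p = 0.0391), and 0 lower. The difference between the lists was not tested.

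Among genes of pyruvate entry into mitochondria 2 of 10 were lower, Pdp2 (-1.23, adjusted p = 9.01e-05), the phosphatase that reverses the action of the Pdk kinases, and Pdhb (-0.54, adjusted p = 0.0484), a subunit of pyruvate dehydrogenase itself. Of 11 other transporter genes 3 were lower: the glucose transporters Slc2a12 (-1.57) and Slc2a8 (-1.28), and Bsg (-0.93), the partner that lactate carriers need to reach the membrane. In the remaining glycolysis list 1 of 14 was higher, the hexokinase-like Hkdc1 (1.22, adjusted p = 4.44e-05), and 2 lower, the muscle enolase Eno3 (-1.14) and Ldhd (-0.68), which uses D-lactate. Of 8 regulators, Myc, a transcription factor that drives glycolytic genes, was the 1 called (1.35 higher). The RNA of Hif1a, the oxygen-regulated factor, differed by 0.09 (adjusted p = 0.976). The protein and activity of Hif1a were not measured. With the description number as a block in the 1-day surgery arrays only, 12 of these 16 calls held, and those of Ldhd (adjusted p = 0.139), Bsg (0.142), Pdhb (0.148) and Rpia (0.122) ended. With that block in all surgery pairs 10 held, and those of Slc2a12 (adjusted p = 0.0838) and Gaa (0.0545) ended too. Leaving out 1 array at a time ended the calls of Ldhd, Bsg, Pdhb and Rpia in 7, 6, 9 and 7 of 9 fits and no other of the 16.

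**Figure D3:**
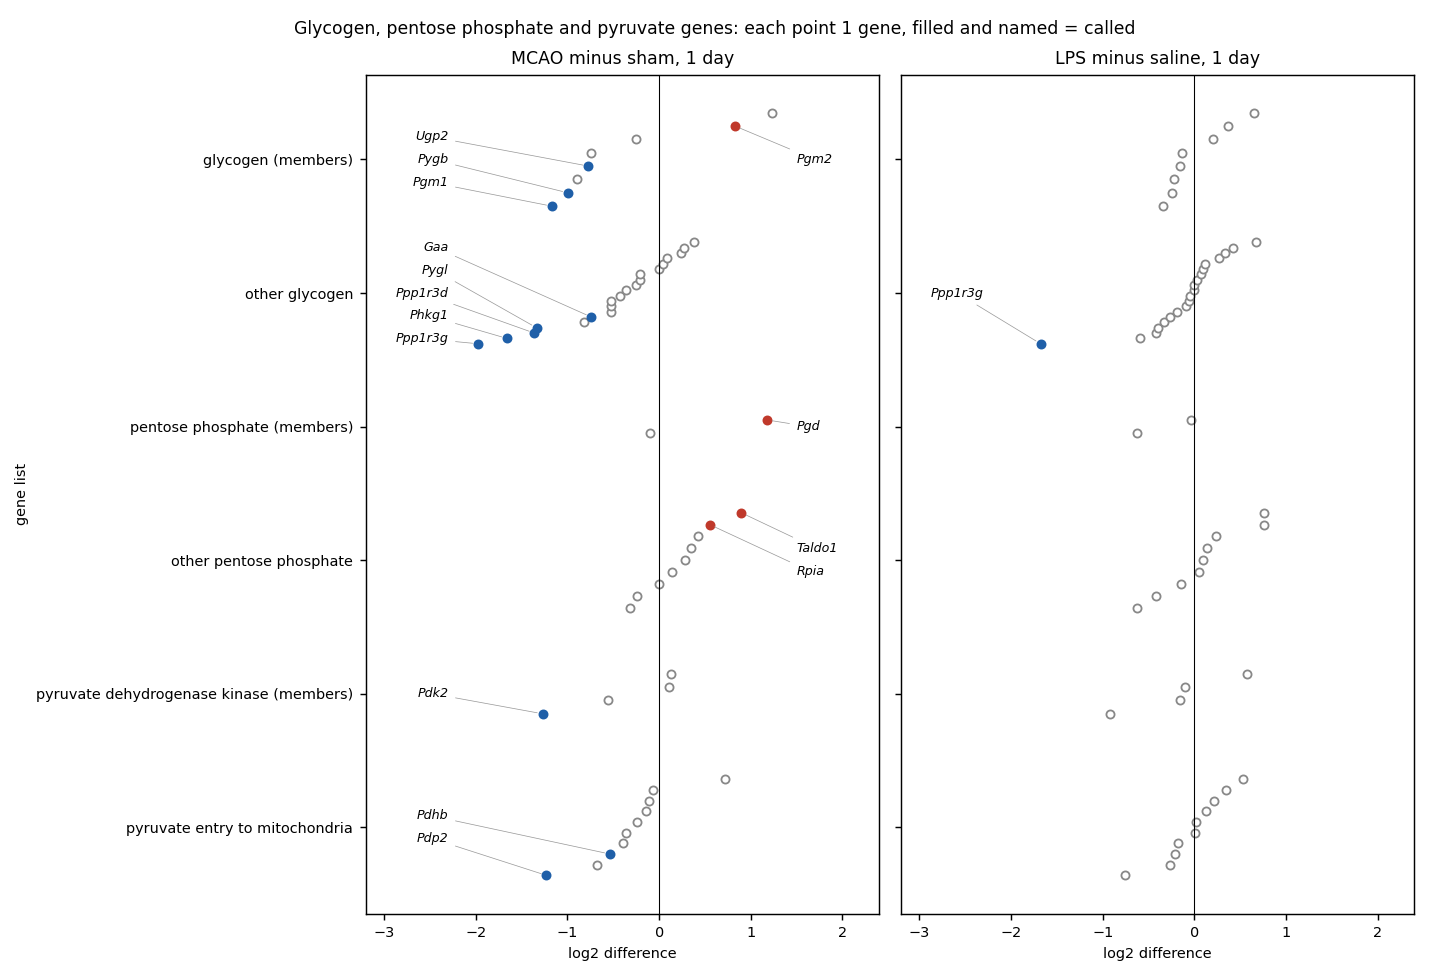
Log2 difference of each gene of the glycogen, pentose phosphate and pyruvate lists, members and other genes, in MCAO minus sham (left) and LPS minus saline (right) at 1 day; height within a list only separates the points. Called genes are filled and named. At 1 day after MCAO 8 genes of the glycogen lists were called lower and 1 higher. The 1 higher was Pgm2, whose product acts mainly on pentose phosphates. Of the pentose phosphate lists 3 genes were called higher and 0 lower.

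The promoters of the called members were read for the core letters of the hypoxia response element, the site bound by oxygen-regulated factors, because many glycolytic genes are known targets of these factors. The letters searched were ACGTG and GCGTG on both strands (CACGT and CACGC when read from the printed strand), over the 250 bases upstream of each start in RefSeq, build GRCm38.p6. All 38 listed genes had a promoter record. Of their 56 promoters 43 held either motif (76.8%), beside 38.6% of all 32851 promoters; the shares were 42.9% against 16.6% for ACGTG and 53.6% against 28.2% for GCGTG. Among promoters of members called higher at 1 day after MCAO 5 of 6 held a match, and among those of members called lower 12 of 15 (80.0%), so the letters were present on both sides. ACGTG is also part of the palindrome CACGTG, which other factors bind and which 12.5% of the members' promoters held. The 5 called members with the lowest adjusted p are printed with the matches in capitals. Only promoters that held a match were printed, so the presence of a match in each was fixed by that choice. For a gene with several starts, the promoter with most matches was taken. Pdk2 and Ugp2 had 2 starts each, and all their matches lay in the printed promoter.
Pdk2, chr11:95041372-95041621, minus strand: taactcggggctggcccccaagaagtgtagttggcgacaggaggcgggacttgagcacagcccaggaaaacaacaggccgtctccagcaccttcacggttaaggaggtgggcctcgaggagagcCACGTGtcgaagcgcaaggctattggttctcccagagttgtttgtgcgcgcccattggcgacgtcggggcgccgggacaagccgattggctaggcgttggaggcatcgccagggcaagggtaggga
Pgm1, chr4:99929201-99929450, plus strand: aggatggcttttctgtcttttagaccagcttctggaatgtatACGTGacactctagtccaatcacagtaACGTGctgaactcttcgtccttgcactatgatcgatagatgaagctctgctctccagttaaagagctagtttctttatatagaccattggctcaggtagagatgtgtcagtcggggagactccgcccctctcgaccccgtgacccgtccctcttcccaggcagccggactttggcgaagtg
Pygb, chr2:150786546-150786795, plus strand: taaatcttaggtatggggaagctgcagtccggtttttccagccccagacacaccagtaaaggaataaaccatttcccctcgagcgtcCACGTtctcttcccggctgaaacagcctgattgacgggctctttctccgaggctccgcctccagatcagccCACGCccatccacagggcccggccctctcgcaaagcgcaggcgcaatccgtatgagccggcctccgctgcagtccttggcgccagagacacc
Pgm2, chr5:64092689-64092938, plus strand: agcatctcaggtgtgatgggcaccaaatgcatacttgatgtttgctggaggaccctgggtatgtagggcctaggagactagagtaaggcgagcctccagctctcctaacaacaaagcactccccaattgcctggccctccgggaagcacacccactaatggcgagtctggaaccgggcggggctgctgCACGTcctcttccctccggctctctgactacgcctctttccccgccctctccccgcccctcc
Ugp2, chr11:21371268-21371517, minus strand: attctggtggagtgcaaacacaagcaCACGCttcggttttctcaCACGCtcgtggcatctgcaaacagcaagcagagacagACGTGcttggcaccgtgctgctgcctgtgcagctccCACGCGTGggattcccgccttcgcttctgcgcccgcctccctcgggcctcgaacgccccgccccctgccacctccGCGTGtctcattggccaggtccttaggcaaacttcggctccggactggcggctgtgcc
Pdk2 held the palindrome CACGTG, read as a match on each strand, Pgm1 held 2 copies of ACGTG, and Ugp2 held 6 matches. Pgm2, the member of the 5 that was called higher, held 1. A match is a description of the letters and neither a bound site nor a cause.

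After LPS the hexokinase gene Hk2 rose and Pfkfb2 fell. At 1 day these 2 of the 34 members were called, beside 3.11% of all genes (2.37% higher and 0.744% lower). In those 2 alone the LPS and saline arrays did not overlap, beside 2.75% of all genes (1.88% higher and 0.865% lower). The members' median log2 difference was -0.06, against 0.07 over all genes. Summed astrocyte markers ranged from 60923 to 122625 after LPS and from 82652 to 128142 after saline, with the lowest value, 60923, on LPS array 5. That array also had the highest summed neutrophil and monocyte markers, 1021 against 388 to 693 on the other LPS arrays and 335 to 482 after saline. After LPS 1 of the 69 kept markers, Rgs5 of mural cells, was called higher, beside 2.37% of all genes. The part of other cell types in these values was not tested.

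Hk2 lay at 8.97, 8.60, 8.48, 8.85 and 9.67 after LPS and at 7.65, 8.14, 8.04 and 7.31 after saline. All LPS arrays were higher, array 5 the highest, and the difference was 1.13 ± 0.29 (adjusted p = 0.032). Without LPS array 5 Hk2 was no longer called (0.94, adjusted p = 0.0681), and it was 1.58 among dim and 0.79 among bright arrays, not called in either. The call also ended without LPS array 1, saline array 1 or saline array 4. It ended too with description numbers as a block in the 1-day surgery arrays (adjusted p = 0.0559). That block pairs no LPS or saline arrays and leaves their log2 difference as it was, so only the error estimate shared by all groups changes.

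Pfkfb2 lay at 8.98, 9.04, 9.05, 8.72 and 7.69 after LPS and at 10.00, 9.27, 9.49 and 9.48 after saline. All LPS arrays were lower, array 5 by the most, with a difference of -0.86 ± 0.24 (adjusted p = 0.0457). Without that array the difference was -0.61 and not called (adjusted p = 0.0823), and 3 dimmer probe sets of Pfkfb2 had -0.14 to -0.02. The call also ended without LPS array 1 or any 1 saline array. It ended too with description numbers as a block in the 1-day surgery arrays (adjusted p = 0.0715), which again pairs no LPS or saline arrays.

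The lactate carrier Slc16a1 had values that depended on 1 array. It lay at 13.93, 13.47, 12.84 and 12.50 in LPS arrays 1 to 4, at 9.78 in array 5, and at 12.31, 10.62, 11.44 and 11.05 after saline. LPS arrays 1 to 4 were above all saline arrays and array 5 was below them all. With all arrays the difference was 1.15 and not called (adjusted p = 0.248); without LPS array 5 it was 1.83 and called (adjusted p = 0.0016). Among bright arrays it was 1.95 (adjusted p = 0.0396) and among dim arrays, which hold array 5, it was -0.10. A second, dim probe set of Slc16a1 had 1.54.

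Several members differed between their probe sets after LPS, among them Pdk1, Pgd, Pgk1, Ppp1r3c and Gys1, and LPS array 5 was far below the other LPS arrays in the first 4. Pdk1 had -0.92 in the probe set used, where array 5 lay at 4.46 and the other LPS arrays at 7.74 to 8.14, and -0.53 to 0.10 in its other 3 probe sets. Pgd had -0.62 in the probe set used and -0.68 in a second, but 0.21 and 0.06 in its other 2, and lay at 9.29 on array 5 against 11.44 to 11.68 on the other LPS arrays. Pgk1 had -0.41 in the probe set used against 0.05 in both others, Ppp1r3c -0.22 against 0.62, and Gys1 -0.16 against 0.40. None of these 5 was called. The glycogen members, 8 measured and 0 called, ran from -0.35 (Ugp2) to 0.65 (Gbe1), and Ugp2 had lower values in its other probe sets, -0.84 to -0.52. Of the 72 other pathway genes 2 were called, beside 3.11% of all genes: Hkdc1 was higher (0.90, adjusted p = 0.00464) and Ppp1r3g lower (-1.68, adjusted p = 0.0423). The call of Hkdc1 held in 9 of 9 fits without 1 array, and ended in the compared groups alone and within the dim or the bright arrays. The call of Ppp1r3g ended without LPS array 1, LPS array 5 or any 1 saline array. It held in 3 of 9 fits without 1 array and in 7 of 15 other alternatives.

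The MCAO and LPS effects at 1 day were compared as a difference of effects, each against its own control. The difference was called for 2 of the 34 members, beside 1.39% of all genes (0.693% higher and 0.699% lower). An unadjusted p under 0.05 was found for 7 members, beside 12.8% of all genes. For Pfkm the MCAO effect was -0.53 and the LPS effect 0.33, a difference of -0.86 ± 0.21 (adjusted p = 0.0363). Its LPS arrays lay at 13.20, 13.52, 13.36, 12.86 and 13.19 and its saline arrays at 13.13, 13.27, 12.63 and 12.56, with overlap, and the bright and dim saline arrays were apart. For Pgd the effects were 1.17 and -0.62, a difference of 1.80 ± 0.45 (adjusted p = 0.0427). Without LPS array 5 it was 1.34 and still called (adjusted p = 0.00433). Of the other probe sets of Pgd, 1 had an MCAO effect of 1.34 and an LPS effect of 0.21. Another had 1.06 and 0.06, and the last 1.19 and -0.68. Leaving out 1 array, the call held in 8 of 18 fits for Pfkm and in 7 of 18 for Pgd. With the description number as a block neither difference was called (adjusted p = 0.0845 for Pfkm and 0.126 for Pgd). The differences for Pdk2 (-1.17, adjusted p = 0.0826) and Pgm1 (-1.03, adjusted p = 0.0959) did not pass the test. Hk2 and Pfkfb2, called in both comparisons, had differences of effects of -0.05 ± 0.42 and 0.04 ± 0.34.

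**Figure D4:**
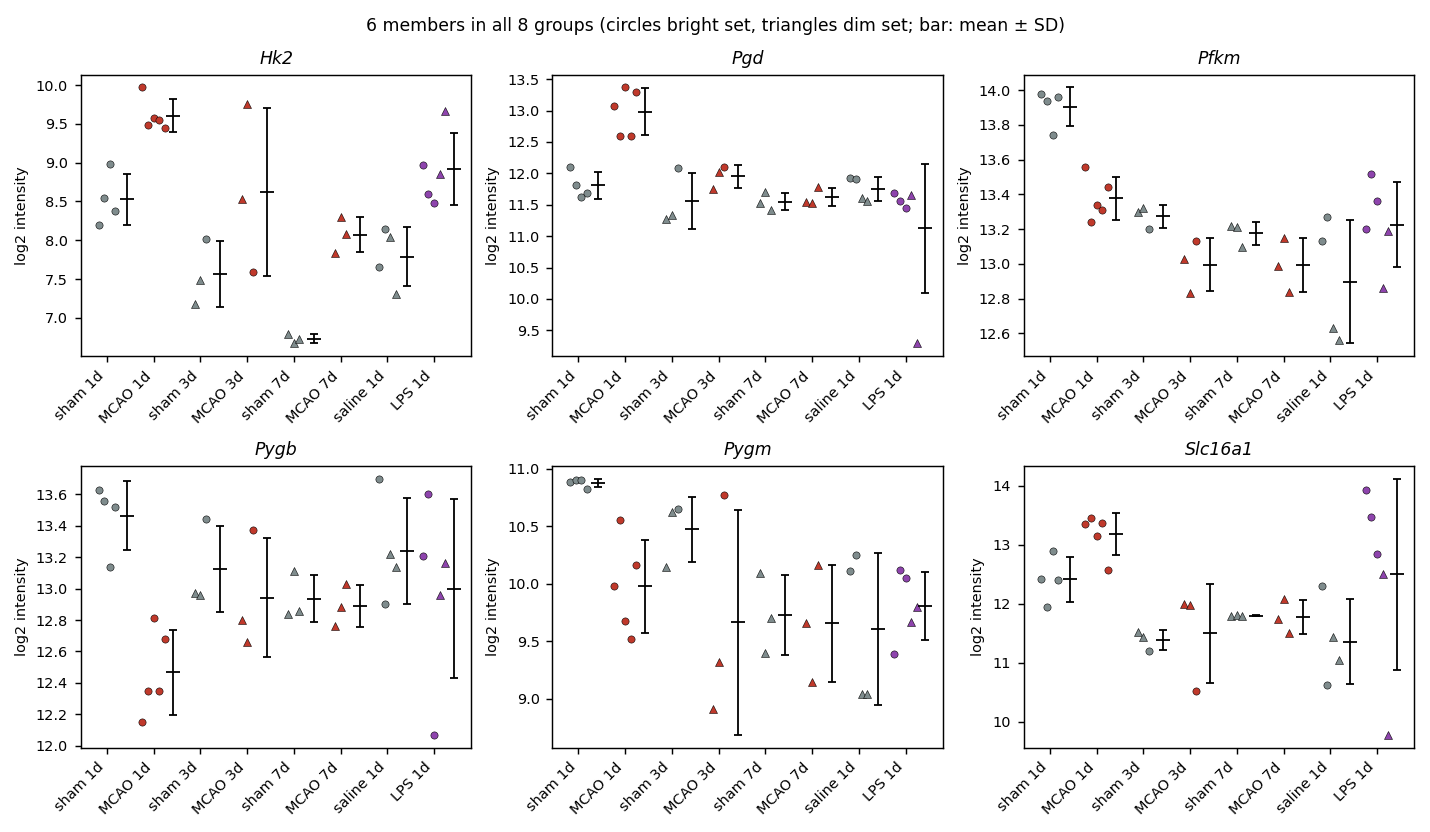
Log2 intensity of 6 members on all arrays of the 8 groups (circles bright set, triangles dim set, bars mean ± SD). Hk2 is higher on every MCAO array than on every sham array at 1 and 7 days, while Slc16a1 shows LPS array 5 at 9.78 below all saline arrays.

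At 3 days after MCAO no member was called with limma, beside 0.674% of all genes (0.61% higher and 0.0636% lower), and 4 members had an unadjusted p under 0.05, beside 9.53% of all genes. The members' median difference was -0.03, against 0.01 over all genes. In 4 members the MCAO and sham arrays did not overlap, beside 12.7% of all genes: Pdk3 was higher, beside 5.74%, and Pfkm, Pdk2 and Pgm1 were lower, beside 6.94%. Pdk3 lay at 8.26, 8.92 and 8.39 after MCAO and at 7.88, 7.81 and 7.85 after sham surgery, a difference of 0.67 (adjusted p = 0.267). Pgm1 lay at 10.73, 11.19 and 11.10 against 11.62, 11.67 and 11.38, a difference of -0.55 (adjusted p = 0.524), in the same direction as at 1 day.

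The 3-day values of Hk2 and Pygm differed between the bright and dim arrays. Hk2 lay at 8.53 and 9.75 in the dim MCAO arrays 1 and 2 and at 7.59 in the bright array 3, and at 7.18, 7.49 and 8.02 in the sham arrays in the same order. The difference was 1.06 over all 6 arrays (adjusted p = 0.206), 1.80 in the dim arrays (adjusted p = 0.0166) and -0.43 in the bright pair. Pygm lay at 8.91, 9.32 and 10.77 after MCAO and at 10.15, 10.62 and 10.65 after sham surgery, a difference of -0.81 over all arrays, -1.27 in the dim arrays (adjusted p = 0.0387) and 0.12 in the bright pair. Without MCAO array 3 both were called (Hk2 1.58, adjusted p = 0.00739; Pygm -1.36, adjusted p = 0.0246). Summed markers of oligodendrocyte precursors were 7051 and 6807 in the dim MCAO arrays against 3553 and 3992 in the dim sham arrays, and 9946 against 13904 in the bright pair. Summed fibroblast markers were 1939 and 5024 against 1694 and 1318 in the dim arrays and 6659 against 9037 in the bright pair. Pdgfra is in both lists, so the precursor and fibroblast sums share a gene. Tagln of mural cells was the 1 marker of 69 called at 3 days, where it was higher, beside 0.61% of all genes. The part of these cells in the values of Hk2 and Pygm was not tested.

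At 7 days no member was called either, beside 0.0254% of all genes, and 2 had an unadjusted p under 0.05, beside 2.62%. The arrays did not overlap in 5 members, beside 16.3% of all genes, with Hk2, Pfkfb3 and Gbe1 higher, beside 9.65%, and Ldhb and Pgm1 lower, beside 6.68%. Hk2 lay at 7.84, 8.30 and 8.08 after MCAO and at 6.79, 6.67 and 6.73 after sham surgery. The groups were well apart, and the difference of 1.34 ± 0.36 was not called (adjusted p = 0.323). In a fit of these 6 arrays by themselves it was called (adjusted p = 0.00774), as it was with array weights (1.22, adjusted p = 0.000736). At 7 days summed precursor markers were 6064 to 7586 after MCAO against 3471 to 4513 after sham surgery, and fibroblast markers 2052 to 4389 against 1080 to 1606, both without overlap. These sums share Pdgfra. With limma 0 of the 69 markers were called, beside 0.0254% of all genes, and 5 had an unadjusted p under 0.05, beside 2.62%. The part of other cell types in the value of Hk2 was not tested. The Hk2 effect at 7 days differed from that at 1 day by 0.27 ± 0.46. Pfkfb3 lay at 8.91, 8.84 and 9.71 against 8.65, 8.38 and 8.34, a difference of 0.69. Among the members called lower at 1 day, the differences at 7 days were -0.26 for Pdk2, -0.28 for Pgm1, -0.05 for Pygb, -0.14 for Ugp2 and -0.08 for Ldhb. For no member did the MCAO effect at 3 or 7 days pass the test of its difference from that at 1 day, beside 0.00636% and 0.356% of all genes called (for 7 days 0.0636% higher and 0.293% lower). Of the 34 members 4 and 5 had an unadjusted p under 0.05 in these tests, beside 5.99% and 8.6% of all genes, and for Pdk2 the effect at 7 days exceeded that at 1 day by 1.02 ± 0.37 (adjusted p = 0.331). Between 7 and 3 days limma called 0 genes, and 0 members had an unadjusted p under 0.05, beside 1.74% of all genes.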

How the data were processed

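RNA of each sorted sample was labelled with Affymetrix's method for small amounts and read on mouse expression arrays, per the labels' protocols. The authors deposited 1 intensity per probe set and array, made with RMA (version not stated) per the submitters' processing notes; the deposited intensities are linear whole numbers, so log2 was taken here. Of 45037 probe sets, 34945 carried 1 symbol, 932 several and 9160 none; identifiers of 34741 matched RefSeq GRCm38.p6 and 0 symbols changed. Per gene the probe set of 1 symbol with the highest mean over 30 arrays was used, so intensities are not compared between genes. The filter kept 15726 of 18193 genes, those whose log2 intensity reached 5 (32 before the log) on 3 arrays or more.

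All groups entered 1 limma model (version 3.58.1, R 4.3.3; tests were 2-sided), with 22 residual and 4.55 prior degrees of freedom over the 8 groups, so each SE rests on a variance pooled over groups. It was tested on simulated data. Precision is limited by the number of arrays. Every called member is described by its value on every array, and other members by range or with their isoenzymes; every called gene of the other pathway lists is named. Members and lists were chosen with earlier results of these data known.

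Replicate numbers in the descriptions were taken to pair the 1-day surgery arrays: deviations of same-numbered arrays correlated at 0.16 to 0.50 in 4 pairs over genes. At 3 and 7 days the correlations were 0.03 to 0.21 and 0.00 to 0.38, and title numbers gave -0.24 to 0.15 at 1 day. Those were not taken as pairs. The correlations do not decide this, because 7-day pairs at 0.38 and 0.31 were above 1-day pairs at 0.23, 0.19 and 0.16. The 1-day pair at 0.50 was MCAO array 4 and sham array 3, which both had high neuron and endothelial marker sums. The part of those cells in that correlation was not tested. No arrays were identical (highest correlation 0.99). Alternatives were other scaling, filters, probe set rules, variance models, blocks, array sets and leaving out each array.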

Additional observations from a re-analysis of the deposited data

Results flagged for a closer look

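In 136 groups of 4 or 5 arrays (34 members, 4 groups), 11 values stood far from the others of their group; chance gives such a value in about 1 of 20 groups. LPS array 5 was far below the other LPS arrays in 5 of them, at log2 intensities of 7.69 for Pfkfb2, 11 for Pgk1 (phosphoglycerate kinase), 4.46 for Pdk1, 11.01 for Ppp1r3c and 9.29 for Pgd. MCAO array 2 at 1 day was low for Tpi1 (11.82) and Pgam1 (10.89), and MCAO array 1 was high for Hk2 (9.97). LPS array 3 (12.76) and saline array 2 (13.43) were high for Slc2a1, and saline array 1 was high for Gbe1 (7.48).

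The MCAO and LPS effects at 1 day differed by test for 2 members, by -0.86 for Pfkm (adjusted p = 0.0363) and by 1.80 for Pgd (adjusted p = 0.0427). These values are from the probe sets used, and the LPS effect of Pgd varied between its probe sets. The causes of these patterns were not tested.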

How the results depend on the processing

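Of the called members at 1 day after MCAO, Pdk2, Pgm1 and Pygb were called under every alternative run. As reported 12 members were called there, and 1991 genes in all. With array weights 20 members and 6161 genes were called, and with description numbers as a block in all surgery pairs 3 and 1078. That block in the 1-day surgery arrays only gave 8 and 1218, and the 9 arrays and the block alone 19 and 5136. Leaving out 1 array gave 7 to 13 members, the 7 without sham array 1, and 1367 to 1914 genes. The other alternatives gave 8 to 18 members and 1671 to 5180 genes. The calls over all genes thus moved with the alternatives too.

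At 3 days, with 106 genes called as reported, array weights gave 3 members and 1937 genes, and the dim arrays alone 2 and 867. Leaving out 1 array gave 0 to 2 members and 3 to 650 genes. At 7 days, with 4 genes called as reported, array weights gave 1 member and 525 genes. The compared groups alone gave 1 and 205, and leaving out 1 array gave 0 members. After LPS 489 genes were called as reported. There 0 members were called in the compared groups alone (65 genes), in the dim arrays (117) and with either description block (232 and 358). Neither of these blocks pairs LPS or saline arrays. There was 1 called with median centring (417 genes), robust trended variance (476) and in the bright arrays (368). With array weights 6 were called (1660 genes), and without 1 array 0 to 3 (225 to 990). In the difference of MCAO and LPS effects 219 genes were called as reported. With median centring (221 genes), the compared groups alone (92) and either block (63 and 88) 0 members were called. There was 1 with quantile normalization (206) and without _x_, _s_ and _a_ probe sets (174). Array weights gave 10 (2123 genes), and leaving out 1 array 0 to 4 (89 to 472). Between 7 and 1 day 56 genes were called as reported. There 6 members were called in the compared groups alone (1537 genes) and 14 with array weights (3144).

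Among the genes refitted under the alternatives (the called genes and the members with a value singled out in the comparisons), directions turned in 4 cases: in the bright pair at 3 days for Hk2 (-0.43) and Pygm (0.12), in the dim LPS and saline arrays for Slc16a1 (-0.10), and without _x_, _s_ and _a_ probe sets for Pfkl between 3 and 1 day (-0.068). Other members were not refitted one by one. Without such probe sets, whose letters mark probes that can read related transcripts, Ldhb and Pgd had no probe set and were not measured, and the calls of Pfkl (-0.41, adjusted p = 0.35) and Ugp2 (-0.78, adjusted p = 0.091) at 1 day after MCAO ended. Title numbers as a block ended no call of a member at 1 day after MCAO; after LPS they ended those of Hk2 (adjusted p = 0.151) and Pfkfb2 (adjusted p = 0.112), and 2 other members were called. The causes were not tested. Small groups and a pooled variance limit what the 3-day and 7-day comparisons can show.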
